A study of Mus musculus with 5 samples.

Results

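The 10 genes described here belong to the response of cells to low oxygen. They are Hif1a, Epas1, Egln1, Egln3, Bnip3, Ndufa4l2, Ankrd37, Pdk1, Vegfa and Car9. They were taken by name as hypoxia inducible factor (HIF) pathway genes and targets from the 55147 gene symbols measured, and they were chosen on earlier values of the same comparison of WT and C3G null cells that is given below. Their differences are therefore a description and carry no p-value. Of the 10 genes, 9 were among the 12518 genes that reached at least 1 TPM (a level relative to transcript length and to the sample's total) in at least 2 samples, and Car9 was not.

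Mouse embryonic stem (ES) cells of the line E14Tg2a, an established feeder-independent line, were grown on gelatin with serum and LIF, the cytokine that holds them in self-renewal. WT cells were the parent line, with 3 samples. C3G null cells, with 2 samples, carried an EF1α-puromycin cassette knocked in by CRISPR in place of exons 2 to 4 of Rapgef1, the gene of the guanine nucleotide exchange factor C3G. They were expanded from picked resistant colonies, and the sources used here do not give the clone of either sample. Neither group is labelled with an oxygen level or a drug. The comparison is of transcript levels in C3G null cells and their parent line. The paper's vector control clones are not among these samples. Effects of selection and cloning therefore cannot be told apart from loss of C3G.

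HIF is a pair of proteins, an α subunit such as HIF1α (Hif1a) or HIF2α (Epas1) and the stable partner ARNT. In normal oxygen the prolyl hydroxylases encoded by the Egln genes mark the α subunit, the VHL ubiquitin ligase takes it up and the proteasome destroys it. In low oxygen the α subunit persists, enters the nucleus and binds short DNA motifs near its targets. The targets shift the cell from respiration to glycolysis, trim or remodel mitochondria, promote vessel growth and include Egln3 itself, which feeds back on the pathway. HIF is regulated largely through protein stability, which RNA levels do not show.

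Rapgef1 had 11.6, 10.3 and 9.64 TPM in WT samples 1 to 3, and 3.92 and 5.55 TPM in C3G null samples 1 and 2. Small RNAs took 63.1 to 67.5% of the TPM in WT samples and 78.4 and 69.8% in C3G null samples, and since TPM sum to the same total, a larger small RNA share lowers all other values. Levels are therefore given both as deposited and scaled by the median of ratios, where a sample is divided by its typical ratio to the average sample. The scale factors were 1.10 to 1.34 in WT samples and 0.619 and 0.906 in C3G null samples. The median log2 fold change of all genes tested was -0.55 as deposited and 0.01 after scaling. After scaling, Rapgef1 fell by 0.41 on the log2 scale (limma adjusted p = 0.00444), and when its transcript length and GC content were corrected for, its difference was -0.15 (limma adjusted p = 0.149). The paper still found transcripts of the C-terminal exons in its knockout clones, but neither full-length nor truncated C3G protein. The summed level of the gene therefore does not measure the loss of C3G. All 8 ES cell markers were detected in each sample, with a summed level of 2170 to 2297 TPM in WT and 1747 to 2267 TPM in C3G null cells. Dppa5a made up most of each sum, at 1307 to 1431 TPM in WT and 1252 and 1552 TPM in C3G null samples. As deposited, Klf4 was at least 11.9 TPM in WT samples and at most 8.66 TPM in C3G null samples. On the same scale, Pou5f1, Esrrb, Zfp42 and Tdgf1 were also below every WT sample, while Nanog, Sox2 and Dppa5a overlapped. The median gene was at -0.55 as deposited, and scaled levels of the markers are not given here. No direction is therefore read from these marker values. The paper reports higher Klf4 and Esrrb transcripts in C3G null cells by qPCR, a comparison that deposited TPM alone cannot settle. Markers of other cells were low. The 6 fibroblast markers summed to 4.45 to 6.23 TPM in WT and 1.75 to 2.90 TPM in C3G null cells, the 4 trophectoderm markers to 3.09 to 4.41 and 1.14 to 2.2 TPM, the 5 endoderm markers to 3.59 to 4.59 and 3.37 to 6.82 TPM, and the 7 blood and vessel markers to 2.32 to 2.66 and 1.83 to 2.72 TPM. Hbb-bt was listed at 0 in every sample. The part of such cells in the results was not tested. In bulk RNA, fewer cells with a transcript and less of it per cell cannot be told apart.

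The promoters of 8 members were in the RefSeq table used (GRCm38.p6), while Ndufa4l2 and Epas1 were not among its entries. Windows of 250 bases before the annotated start were searched on both strands for ACGTG or GCGTG, the core of the motif that HIF binds. The table gave 10 windows for these 8 members, and 8 of the 10 held a core, against 38.6% of all 32851 windows. The windows without one were the second of Pdk1 and the first of Vegfa. The windows of Hif1a and Ankrd37 and the second windows of Pdk1 and Vegfa lie within the span annotated for the gene. GC content ran from 38.4 to 86.0% over the 10 windows, and its part in the share with a core was not tested. The windows of 2 members that were higher in C3G null cells, of 1 that was higher only after scaling and of 1 that was lower are shown 5′ to 3′ along the gene's strand, with core matches on either strand in capitals.
Bnip3, minus strand of chr7:138909507-138909756: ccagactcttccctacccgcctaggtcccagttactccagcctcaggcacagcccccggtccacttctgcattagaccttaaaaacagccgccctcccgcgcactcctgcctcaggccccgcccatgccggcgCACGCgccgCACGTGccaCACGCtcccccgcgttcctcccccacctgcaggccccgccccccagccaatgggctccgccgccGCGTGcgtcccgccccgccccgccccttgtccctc
Egln3, minus strand of chr12:54203875-54204124: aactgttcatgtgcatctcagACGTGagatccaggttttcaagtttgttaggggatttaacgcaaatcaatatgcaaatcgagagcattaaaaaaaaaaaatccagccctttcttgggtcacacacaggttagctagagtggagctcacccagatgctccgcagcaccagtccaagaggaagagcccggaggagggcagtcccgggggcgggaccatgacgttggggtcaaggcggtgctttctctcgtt
Pdk1, plus strand of chr2:71872974-71873223: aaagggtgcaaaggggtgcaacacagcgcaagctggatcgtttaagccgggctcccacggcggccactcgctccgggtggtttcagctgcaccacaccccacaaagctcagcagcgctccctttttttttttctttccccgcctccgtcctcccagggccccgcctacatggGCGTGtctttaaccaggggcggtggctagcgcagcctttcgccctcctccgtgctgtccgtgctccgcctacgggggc
Vegfa, minus strand of chr17:46032378-46032627: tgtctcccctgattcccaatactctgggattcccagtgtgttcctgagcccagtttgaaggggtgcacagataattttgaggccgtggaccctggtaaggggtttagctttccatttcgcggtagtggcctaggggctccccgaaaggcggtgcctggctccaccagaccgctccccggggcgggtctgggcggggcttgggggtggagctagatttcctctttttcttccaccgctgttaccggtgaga
The Bnip3 window held 5 core matches, at 117, 108, 107, 99 and 35 bases before the start, of which those at 108 and 107 are the same palindrome read on both strands. Windows with at least 5 matches made up 1.01% of the table. The Egln3 window held 1 match at 229 bases before the start, and the Pdk1 window held 1 at 78. The Vegfa window shown held none, which says only that these letters are not in this stretch, and the window of a second Vegfa start held 2. The Ankrd37 window held 4, Hif1a 3, Egln1 2 and Car9 1. A match is a run of letters, and binding was not measured.

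Hif1a, which encodes the oxygen-regulated α subunit found in most cells, differed between the groups by less than the spread of the samples once these were scaled. It lies on chromosome 12 of GRCm38 (73901375 to 73947530). Its deposited values were 26.5, 25.8 and 23.1 TPM in WT samples and 12.7 and 17.8 TPM in C3G null samples, so that each C3G null sample was lower than each WT sample. After scaling the values were 19.9, 21.2 and 20.96 in WT and 20.5 and 19.6 in C3G null cells, and the groups overlapped. The log2 fold change on log2(TPM + 1) was -0.04 (SE 0.065) after scaling and -0.71 (SE 0.26) as deposited.

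Epas1, which encodes the related HIF2α subunit, was present at a much lower level. It had 4.47, 4.99 and 3.25 TPM in WT samples and 1.73 and 2.95 TPM in C3G null samples. After scaling, WT samples ranged from 2.94 to 4.09 and C3G null samples were at 2.80 and 3.26, again with overlap, and the log2 fold change was -0.14 (SE 0.12). The RNA of neither α subunit was higher in C3G null samples on either scale.

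The oxygen sensors Egln1 and Egln3 differed from each other. Egln1 encodes PHD2, the main hydroxylase that marks HIF1α in normal oxygen. It had 4.71, 4.03 and 3.26 TPM in WT samples and 1.46 and 2.91 TPM in C3G null samples, and after scaling 3.53, 3.30 and 2.95 against 2.36 and 3.21. The scaled groups overlapped, with a log2 fold change of -0.18 (SE 0.12).

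Egln3 encodes PHD3, the hydroxylase that is itself a strong HIF target. It had 6.10, 4.63 and 4.62 TPM in WT samples and 6.79 and 10.1 TPM in C3G null samples, so that it was higher in C3G null cells even in the deposited values. After scaling the values were 4.57, 3.80 and 4.19 in WT and 11.0 and 11.2 in C3G null cells. The mean went from 4.18 ± 0.387 (SD, n = 3) to 11.1 ± 0.146 (SD, n = 2), a ratio of 2.65. Its log2 fold change was 1.22 (SE 0.080) after scaling and 0.62 (SE 0.24) as deposited. Ordered from the largest rise, it was number 118 of the 12518 genes after scaling.

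Among the mitochondrial members, Bnip3 and Ndufa4l2 were higher in C3G null cells. Bnip3 encodes a receptor of the outer mitochondrial membrane that recruits the autophagy machinery. It lies on the minus strand of chromosome 7 (138890836 to 138909519), and its promoter window is the one with 5 core matches. It had 34.9, 34.3 and 36.0 TPM in WT samples and 38.5 and 56.6 TPM in C3G null samples. After scaling these were 26.1, 28.1 and 32.6 against 62.2 and 62.4, and the C3G null samples were nearly equal and above every WT sample. The ratio of scaled means was 2.15, with a log2 fold change of 1.09 (SE 0.10) after scaling and 0.40 (SE 0.27) as deposited.

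Ndufa4l2 encodes a small paralog of NDUFA4, a subunit of cytochrome c oxidase, and is known as a HIF target that lowers mitochondrial oxygen use. It lies on the plus strand of chromosome 10 (127514967 to 127517154). It had 4.03, 3.24 and 3.59 TPM in WT samples and 4.98 and 6.71 TPM in C3G null samples, with no overlap. After scaling, WT samples had 3.02, 2.66 and 3.25 and C3G null samples 8.05 and 7.41. The ratio of scaled means was 2.60 and the log2 fold change was 1.14 (SE 0.086), against 0.56 (SE 0.23) as deposited. Its main transcript shares 32 of 934 exon bases with Shmt2 on the opposite strand, and the strand setting of the counting is not given in the sources used here. Shmt2, a serine to glycine converting enzyme of mitochondria, had 31.8 to 39.1 TPM in WT samples and 16.4 and 21.1 TPM in C3G null samples. After scaling, Shmt2 had a log2 fold change of -0.19 (limma adjusted p = 0.135). The part of the shared bases in the Ndufa4l2 values was not tested.

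Pdk1 depended on the scale. It encodes a kinase that shuts off pyruvate dehydrogenase and so keeps pyruvate out of the citric acid cycle. It had 35.2, 34.0 and 33.6 TPM in WT samples and 23.9 and 37.8 TPM in C3G null samples, which lay on both sides of the WT samples. After scaling the C3G null samples, at 38.6 and 41.8, were above the WT samples at 26.4, 27.9 and 30.4. The log2 fold change was 0.50 (SE 0.086) after scaling and -0.18 (SE 0.27) as deposited.

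Ankrd37, a HIF target that encodes an ankyrin repeat protein, had 4.06, 3.18 and 3.40 TPM in WT samples and 2.14 and 3.32 TPM in C3G null samples. After scaling it had 3.04, 2.61 and 3.08 against 3.46 and 3.67. Its log2 fold change was 0.22 (SE 0.081) after scaling, -0.30 (SE 0.22) as deposited and 0.05 (SE 0.094) with the length and GC correction, so its direction is not settled by these values. Its main transcript shares 57 of 927 exon bases with Ufsp2 on the opposite strand, and Ufsp2 had a log2 fold change of 0.07 (limma adjusted p = 0.518) after scaling.

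Vegfa and Car9 had lower means in C3G null cells. Vegfa, which encodes the main growth factor for vessels, had 6.90, 5.6 and 5.46 TPM in WT samples and 2.76 and 3.44 TPM in C3G null samples. After scaling it had 5.17, 4.59 and 4.95 against 4.46 and 3.80, still without overlap but with a gap that was small beside the spread, and a log2 fold change of -0.20 (SE 0.084). Car9 encodes carbonic anhydrase 9, a membrane enzyme that exports acid and is a widely used marker of hypoxia. It had 0.61, 0.24 and 0.52 TPM in WT samples and 0.040 and 0.25 TPM in C3G null samples, below the filter, so no fold change was fitted.

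**Figure D1:**
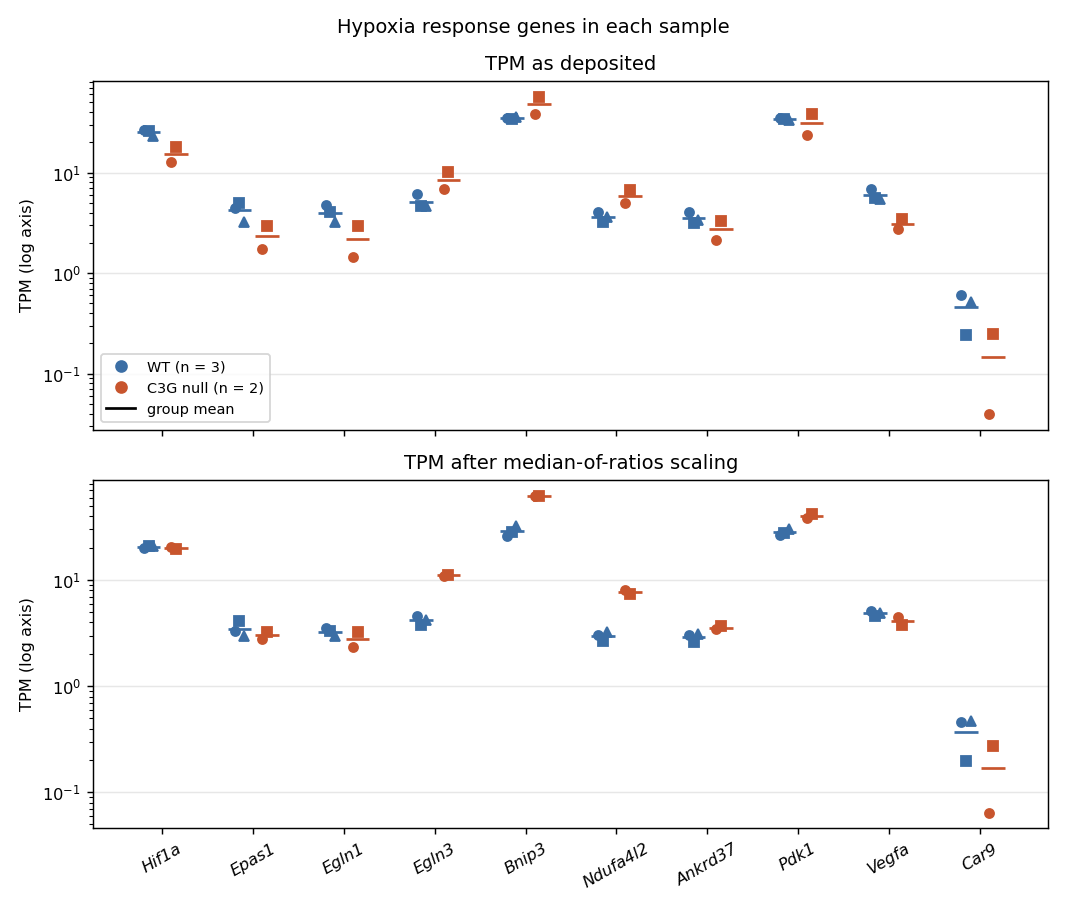
TPM of the 10 hypoxia response genes in each sample on a log axis, with deposited values in the upper panel and scaled values in the lower one, with WT samples in blue (n = 3), C3G null samples in orange (n = 2), one symbol per replicate number and a line at each group mean. For Egln3, Bnip3 and Ndufa4l2 both C3G null samples lie higher than every WT sample in both panels, while Hif1a lies lower as deposited and overlaps after scaling.

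As counts, 5 of the 9 members that passed the filter had both C3G null samples above all WT samples after scaling, against 29.5% of all genes tested, and 1 had both below, against 29.3%. As deposited, 3 were above, against 1.49% of all genes, and 4 were below, against 75.7%. Since this comparison chose the members, nothing is read from these counts. Over 17 other settings, or 16 for those that a stricter filter removes, Egln3, Bnip3 and Ndufa4l2 were above 0 in each, Vegfa was below 0 in each, and the other 5 changed sign in 1 setting each.

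**Figure D2:**
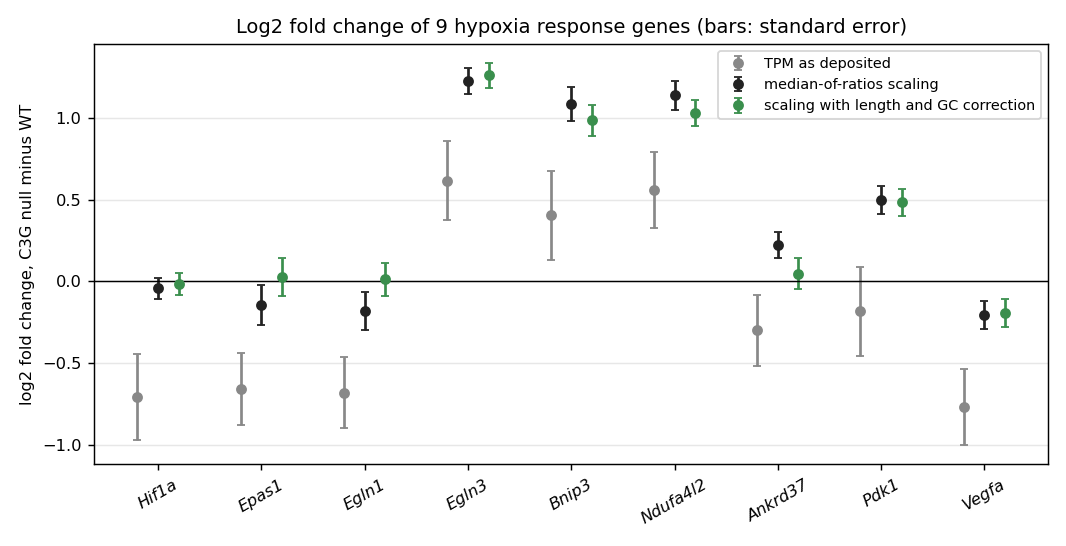
Log2 fold change, C3G null minus WT, of the 9 members that passed the filter, with standard errors as bars, for TPM as deposited (grey), after median-of-ratios scaling (black) and after scaling with a length and GC correction (green). Egln3, Bnip3 and Ndufa4l2 lie at 1.22, 1.09 and 1.14 after scaling, and Ankrd37 and Pdk1 change sign between the deposited and the scaled values.

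**Figure D3:**
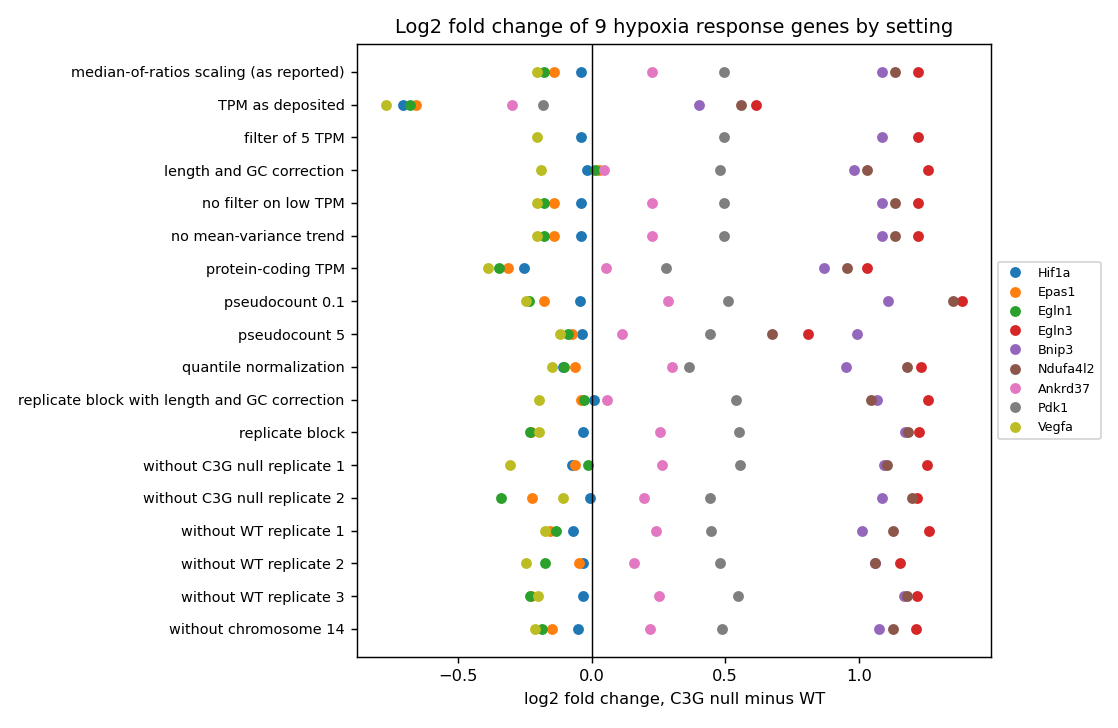
Log2 fold change, C3G null minus WT, of the same 9 genes (one colour each) under each of 18 settings on the vertical axis. The points of Egln3, Bnip3 and Ndufa4l2 lie to the right of 0 throughout, with lowest values of 0.62, 0.40 and 0.56 for TPM as deposited.

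The order of the members within a sample does not depend on scaling. Bnip3 and Pdk1 held the first 2 places in all 5 samples and Hif1a the third. Bnip3 was above Pdk1 in WT samples 2 and 3 and in both C3G null samples, and below it in WT sample 1. In WT samples Bnip3 and Pdk1 had scaled means of 28.9 ± 3.32 and 28.2 ± 2.07 (SD, n = 3), which did not differ beyond their spread. Egln3 went from place 5 or 6 in WT samples to place 4 in both C3G null samples, and Ndufa4l2 from places 6 to 9 to place 5. Vegfa went from place 4 to place 6, and Car9 was last throughout.

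Ratios of 2 genes within a sample also do not depend on scaling. The pairs, each a member with a paralog or with Hif1a or Arnt, were picked after the values were seen. Bnip3 to Hif1a was 1.31, 1.33 and 1.55 in WT and 3.03 and 3.19 in C3G null samples. Ndufa4l2 to Hif1a was 0.152, 0.125 and 0.155 against 0.392 and 0.378, and Egln3 to Hif1a was 0.230, 0.179 and 0.2 against 0.535 and 0.571. All 3 targets thus stood higher relative to the RNA of the HIF1α subunit in both C3G null samples. Hif1a to Arnt, its partner, was 1.88, 2.28 and 2.21 against 1.99 and 1.78, with overlap.

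Ratios to a paralog gave the same order of the groups for these members. Ndufa4l2 to Ndufa4 was 0.0392, 0.0290 and 0.0347 in WT samples and 0.0584 and 0.0598 in C3G null samples, 1.72 times the WT mean. Egln3 to Egln1 was 1.30, 1.15 and 1.42 against 4.65 and 3.48, 3.16 times. Bnip3 to Bnip3l was 0.778, 0.677 and 0.888 against 3.02 and 2.63, 3.62 times, so that the order of these mitophagy receptors was turned. Bnip3l itself had a mean of 45.3 TPM in WT and 17.1 TPM in C3G null samples as deposited. It lies on chromosome 14, where 56.7% of the genes tested fell after scaling, against 15.2% on all other chromosomes. The part of that chromosome in this ratio was not tested. Pdk1 to Pdk3 was 4.72, 5.38 and 5.10 against 6.86 and 7.20, 1.39 times, and Vegfa to Vegfb was 1.06, 1.03 and 1.26 against 0.871 and 0.605. Transcript length and GC content differ within each pair, and their part in these ratios was not tested.

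**Figure D4:**
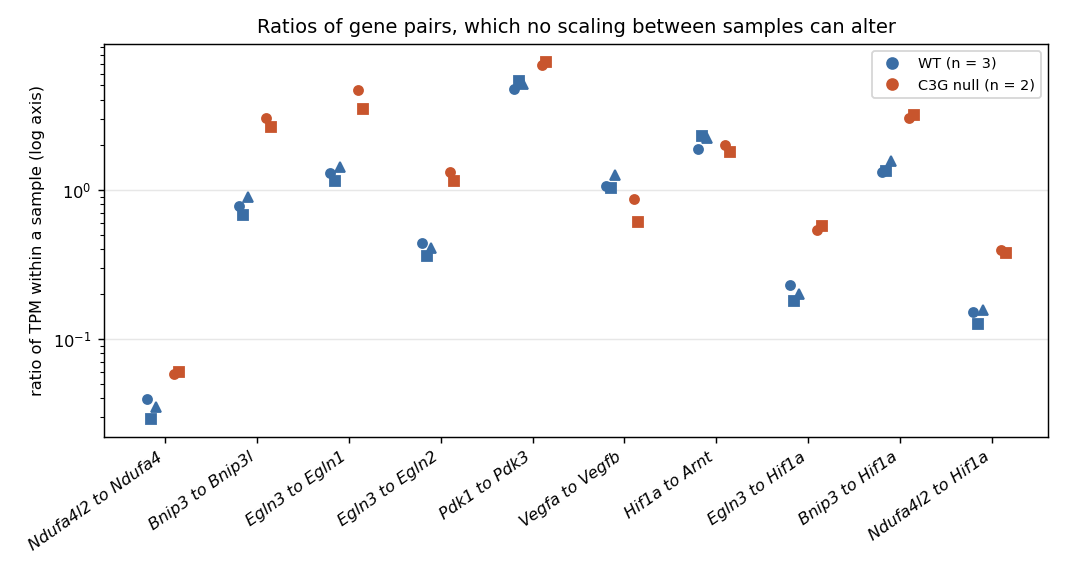
Ratio of the TPM of a member to a paralog, to Hif1a or to Arnt within each sample, on a log axis, with WT samples in blue (n = 3) and C3G null samples in orange (n = 2). The C3G null samples lie above all WT samples for each pair led by Egln3, Bnip3, Ndufa4l2 or Pdk1 and below them for Vegfa to Vegfb. For Hif1a to Arnt the groups overlap.

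The transcripts behind the members differed in kind. Bnip3 held 4 transcripts of at least 1 TPM, and each was higher in both C3G null samples than in all WT samples after scaling. Its longest protein-coding transcript made up 62.4 to 69.9% of the gene in every sample, at scaled values of 17.4, 18.1 and 20.3 in WT and 40.9 and 43.7 in C3G null samples. The main protein-coding transcript of Ndufa4l2 made up 85.5 to 92.2% of its gene, and Egln1 and Egln3 each had a single protein-coding transcript with all of the TPM. For Pdk1, only 21.3 to 25.3% of the TPM were on its protein-coding transcript, and 33.7 to 40.5% were on 1 processed transcript without a coding frame. The protein-coding transcript alone had scaled values of 6.25, 6.03 and 6.50 in WT and 8.73 and 10.6 in C3G null samples, without overlap. The main protein-coding transcript of Hif1a held 58.5, 57.1 and 47.5% of Hif1a in WT and 46.7 and 64.8% in C3G null samples, so that the split between the Hif1a transcripts varied as much within a group as between groups.

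The other genes of the pathway were taken from 9 lists that hold 83 genes besides the members, of which 69 were tested. They were tested with limma over all 12518 genes. After scaling, 22 rose (31.9%, against 14.1% of all genes tested), 13 fell (18.8%, against 16.6%) and 34 did not pass the threshold of an adjusted p under 0.05, so that the share that fell was near that of all genes. They had a median log2 fold change of 0.10 against 0.01 over all genes tested. As deposited, none rose by limma, with 1 at an unadjusted p under 0.05, against 1.45% of all genes that rose, and 32 fell (46.4%), a smaller share than the 56.8% of all genes. The median as deposited was -0.47 against -0.55. Without the glycolysis list, 12 of 50 rose and 11 fell after scaling, with a median of 0.03. The directions that follow are those after scaling, in log2 units of TPM + 1, and each rise among these 69 genes is relative to the median of all genes.

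Among the HIF subunits and partners, none of 5 rose by limma, with none at an unadjusted p under 0.05, and 2 fell. Arnt had a log2 fold change of 0.12 (limma adjusted p = 0.3). Crebbp, a histone acetyltransferase that HIF recruits, fell by 0.36 on the log2 scale (limma adjusted p = 0.0436), and was at a log2 fold change of -0.13 (limma adjusted p = 0.225) with the length and GC correction. Cited2, a HIF target that competes with HIF for that coactivator, fell by 0.35 log2 units (limma adjusted p = 0.0133). Of 11 genes of oxygen sensing and HIF turnover, only Rbx1, a subunit of the VHL ligase, passed the threshold, with a rise of 0.31 (limma adjusted p = 0.0461) that was lost with the length and GC correction (limma adjusted p = 0.177). Vhl itself was at a log2 fold change of 0.10 (limma adjusted p = 0.469), and the asparaginyl hydroxylase gene Hif1an at a log2 fold change of 0.04 (limma adjusted p = 0.679). Egln2, the third hydroxylase gene, was at a log2 fold change of -0.19 (limma adjusted p = 0.109). No gene of this list fell by limma, with 1 at an unadjusted p under 0.05.

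Of 5 other mitochondrial targets, 3 rose and 1 fell. Bnip3l, which encodes the sister receptor of BNIP3 also known as NIX, fell from 44.8, 50.7 and 40.5 TPM in WT to 12.7 and 21.5 TPM in C3G null samples as deposited, and by 0.72 log2 units after scaling (limma adjusted p = 0.00589). Bnip3l lies on chromosome 14, where 56.7% of the 441 genes tested fell after scaling, against 15.2% of the genes on all other chromosomes, and the part of that chromosome in its value was not tested. Fam162a, a HIF target of the mitochondrial membrane, rose by 0.31 log2 units (limma adjusted p = 0.0265), but was at 0.07 with the length and GC correction. Lonp1, a protease that HIF uses to swap cytochrome c oxidase subunits, rose by 0.28 log2 units (limma adjusted p = 0.0459).

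Of 19 genes of glucose uptake and glycolysis, 10 rose after scaling (52.6%, against 14.1% of all genes) and 2 fell. As deposited, none of them rose by limma, with 1 at an unadjusted p under 0.05, and 4 fell. Pgk1, which makes ATP in glycolysis, had 294 to 313 TPM in WT and 316 and 417 TPM in C3G null samples, and rose by 0.94 log2 units after scaling (limma adjusted p = 0.00464) and by 0.41 with quantile normalization (limma adjusted p = 0.0255). Ldha, which turns pyruvate into lactate, rose by 0.83 log2 units (limma adjusted p = 0.00319). Ldha did not pass the threshold with quantile normalization, at 0.32 (limma adjusted p = 0.0551), or as deposited, at 0.13 (limma adjusted p = 0.665). The glucose transporters went the other way. Slc2a1 (GLUT1) had 90.5 to 101 TPM in WT and 37.7 and 51.8 TPM in C3G null samples, and fell by 0.40 log2 units (limma adjusted p = 0.0131). Slc2a3 (GLUT3) had 200 to 218 TPM in WT and 78.7 and 113 TPM in C3G null samples, and fell by 0.44 log2 units (limma adjusted p = 0.0186). Without WT replicate 2 neither transporter passed the threshold, at log2 fold changes of -0.42 and -0.48. With the replicate number as a block, Slc2a1 was at -0.36 (limma adjusted p = 0.0584) and Slc2a3 at -0.38 (limma adjusted p = 0.078), also not past it.

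Among vessel, iron and red cell targets, 2 of 6 rose and 3 fell. Tfrc, the transferrin receptor, rose by 0.46 log2 units (limma adjusted p = 0.00686). Of 5 matrix-modifying enzymes none rose by limma, with none at an unadjusted p under 0.05, and 2 fell, of which Loxl2 is on chromosome 14. Of 4 histone demethylase targets 2 rose. Kdm3a, which removes methyl groups from lysine 9 of histone H3 and is induced by HIF, rose by 0.47 log2 units (limma adjusted p = 0.00435), and its relative Kdm4c by 0.40 log2 units (limma adjusted p = 0.00642).

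Of 13 stress and growth targets, 4 rose (30.8%, against 14.1% of all genes) and 3 fell (23.1%, against 16.6%). Igfbp3, which binds insulin-like growth factors, had 19.3, 17.3 and 15.7 TPM in WT and 2.41 and 4.11 TPM in C3G null samples, and fell by 1.55 log2 units (limma adjusted p = 0.000144). Bhlhe40, a repressor of transcription, fell by 0.46 log2 units (limma adjusted p = 0.0124). Mif, a cytokine, rose by 0.75 log2 units (limma adjusted p = 0.00874), and Ddit4, an inhibitor of mTORC1 signalling also known as REDD1, by 0.27 log2 units (limma adjusted p = 0.0283). As deposited, Ddit4 was at -0.39 and Mif at 0.05. With quantile normalization Mif was at 0.22 (limma adjusted p = 0.276) and Ddit4 at 0.21 (limma adjusted p = 0.052), and neither passed the threshold.

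**Figure D5:**
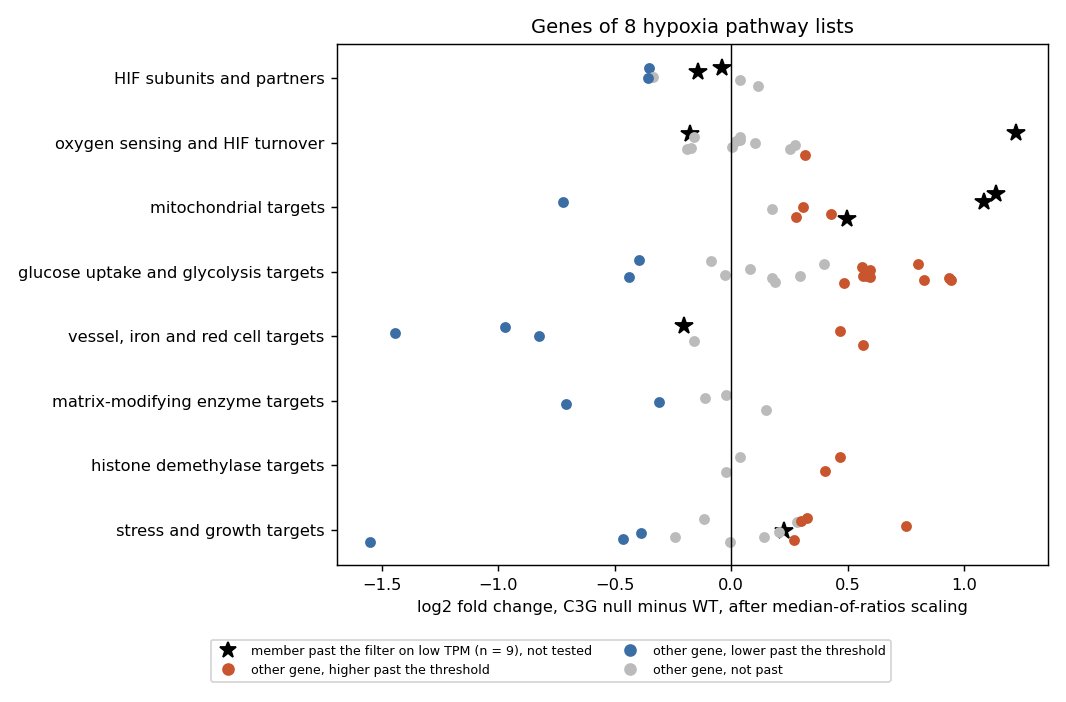
Log2 fold change, C3G null minus WT, after median-of-ratios scaling for genes of 8 hypoxia pathway lists, with the 9 members that passed the filter as black stars (not tested), other genes that rose in orange, other genes that fell in blue and those that did not pass the threshold in grey. Egln3, Bnip3 and Ndufa4l2 lie further right than each other gene shown, of which Pgk1 is the highest at 0.94.

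The paralogs of the members were split. Of 11 tested, 3 rose and 3 fell after scaling, 27.3% each way against 14.1% and 16.6% of all genes, and as deposited 1 rose and 7 fell. Ndufa4 had 103, 112 and 104 TPM in WT and 85.2 and 112 TPM in C3G null samples, and rose by 0.58 log2 units after scaling (limma adjusted p = 0.0134). It did not pass the threshold with quantile normalization, at 0.24 (limma adjusted p = 0.0717), or as deposited, at -0.11 (limma adjusted p = 0.708). Car2, a cytosolic carbonic anhydrase, had 75.5 to 80.2 TPM in WT and 23.9 and 35.5 TPM in C3G null samples, and fell by 0.70 log2 units (limma adjusted p = 0.00338). Car2 thus was far above Car9 in level in every sample. Among 13 subunits of cytochrome c oxidase other than NDUFA4, which belongs to this complex, 8 rose after scaling (61.5%, against 14.1% of all genes) and none fell by limma, with none at an unadjusted p under 0.05. As deposited, none of the 13 rose by limma, with none at an unadjusted p under 0.05, and 2 fell. Cox7a2 rose by 0.82 log2 units (limma adjusted p = 0.00552) and Cox7a2l by 0.75 log2 units (limma adjusted p = 0.00498), and with the length and GC correction 5 of the 13 rose and 1 fell. As deposited, Cox7a2 was at 0.13 (limma adjusted p = 0.653) and Cox7a2l at 0.06 (limma adjusted p = 0.836). Among 6 other mitophagy receptors and kinases, none rose by limma, with none at an unadjusted p under 0.05, and only Bnip3l fell.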

How the data were processed

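Total RNA of 3 WT and 2 C3G null samples was sequenced as paired-end reads on a NovaSeq. The authors deposited TPM for 142647 Ensembl transcripts, rounded to 2 decimals, with samples not pooled. The authors' text names FastQC, alignment with STAR to GRCm38, and DESeq2 for their own comparison. The submitters' processing notes also list bcl2fastq 2.20, FastQC 0.11.7, STAR 2.5.1b and RSEM 1.2.31 without roles. Read counts were not used here, so depth and counting error are unknown, and the number of samples limits the precision. The study calls the samples of each group independent.

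Through GENCODE M21, 141524 transcripts were matched (1123 were not) and summed to 55147 symbols, 113 of which hold several gene identifiers. Genes with at least 1 TPM in at least 2 samples were kept. Each sample was scaled by the median of ratios to the geometric mean, and log2(TPM + 1) was fitted with limma 3.58.1 (R 4.3.3) with a mean-variance trend, two-sided, with Benjamini-Hochberg adjustment over all genes and a threshold of 0.05. This understates fold changes of low genes. The prior degrees of freedom were 3.11 after scaling and infinite as deposited, where a p-value takes no account of a gene's own spread. An exact rank test of 3 against 2 samples cannot give a two-sided p under 0.2. The length and GC correction subtracts a smooth trend (span 0.5) from each sample. The procedure was tested on simulated data.

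The members and lists were chosen with earlier results of these data known. The genes named are the members, up to 2 genes with the largest rise and 2 with the largest fall past the threshold in each list, at a mean of at least 5 TPM, and Ndufa4, Arnt, Vhl, Hif1an, Egln2, Bnip3l and Rapgef1. Loxl2, Shmt2 and Ufsp2 were named after their values were seen. Some genes of the lists are not reported here. Alternatives were TPM as deposited, TPM of protein-coding genes, quantile normalization, pseudocounts of 0.1 and 5, filters of 0 and 5 TPM, no trend, the length and GC correction, a replicate block with and without it, no chromosome 14 and each sample left out. Figures were made with matplotlib 3.10.9.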

Additional observations from a re-analysis of the deposited data

How the results depend on the processing

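The results depended most on the scale. Of 12518 genes, 1760 were higher and 2083 lower in C3G null cells after median-of-ratios scaling, 181 and 7109 as deposited, and 707 and 3732 with protein-coding TPM, so 45.8%, 2.48% and 15.9% of calls were higher. With a filter of 5 TPM, 1145 were lower. Of the 69 other pathway genes, 22 were higher and 13 lower after scaling, 0 and 32 as deposited, and 10 and 21 with protein-coding TPM. Quantile normalization gave 13 higher and ended the call of Crebbp, Rbx1, Fam162a, Lonp1, Ldha, Mif, Ddit4 and Ndufa4, and the filter of 5 TPM gave 8 lower. As deposited, the log2 fold change turned to -0.18 for Pdk1, -0.37 for Rbx1, -0.37 for Fam162a, -0.38 for Lonp1, -0.22 for Tfrc, -0.22 for Kdm3a, -0.26 for Kdm4c, -0.39 for Ddit4, -0.11 for Ndufa4, -0.19 for Xbp1 and -0.58 for Hif1an. It also turned to -0.30 for Ankrd37, -0.52 for Arnt, -0.43 for Vhl and -0.48 for Ufsp2. The small RNA share moves with this scale, and its part was not tested.

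With each sample left out in turn, 909 to 1579 genes were higher and 1385 to 1880 lower, and 12 to 21 pathway genes were higher and 8 to 13 lower. Without WT replicate 2, the counts were 909, 1385, 12 and 8. Without C3G null replicate 1, 981 genes were higher, and without C3G null replicate 2, 990 genes and 12 pathway genes were. Without a C3G null replicate the remaining sample is assumed to vary like the WT samples. Egln3 stayed at 1.15 to 1.26, Bnip3 at 1.01 to 1.17 and Ndufa4l2 at 1.06 to 1.198.

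For same-numbered samples, the deviations from the group mean, taken over the genes tested, had correlations of -0.18 and 0.18. With 2 C3G null samples these deviations mirror each other, so the 2 correlations are not independent. The sample numbers do not establish a pairing. With the replicate block, 1489 genes were higher and 1816 lower, and 17 and 11 pathway genes. With the block and the length and GC correction these were 1229, 1565, 20 and 9. Of the values of single genes under these alternatives, 521 kept their call or stayed within the spread, 70 lost the threshold, 3 gained it and 35 values of members moved by more than the spread. Leaving out 1 sample ended the call of Crebbp, Cited2, Rbx1, Fam162a, Lonp1, Slc2a1, Slc2a3, Bhlhe40, Ddit4 or Ndufa4 in at least 1 case, with the sign kept. Depth is unknown for TPM, and nothing can be said of the counting error of low members such as Car9.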

Other observations

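Genes of the integrated stress and unfolded protein response, which can induce some of the same targets as hypoxia, were split. Of 11 tested, 2 rose (18.2%, against 14.1% of all genes) and 4 fell (36.4%, against 16.6%) after scaling. As deposited, none rose by limma, with none at an unadjusted p under 0.05, and 5 fell (45.5%, against 56.8%). With the length and GC correction, 4 rose and 4 fell. Atf5, a transcription factor of the mitochondrial stress response, had 12.4, 12.1 and 10.2 TPM in WT and 2.41 and 3.22 TPM in C3G null samples, and fell by 1.15 on the log2 scale (limma adjusted p = 0.00031). Sesn2, a stress-induced inhibitor of mTORC1 signalling, fell by 0.49 log2 units (limma adjusted p = 0.00286). Xbp1, a transcription factor of the unfolded protein response, rose by 0.49 log2 units (limma adjusted p = 0.00305) after scaling.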
